A study of Mus musculus with 12 samples.

Results

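The reactive astrocyte genes are 33 genes known to rise when astrocytes respond to injury, ischaemia or inflammation. They were found by name among 55536 genes that were counted by RNA-Seq in 12 libraries, and each name matched 1 gene of the GENCODE vM21 annotation. The libraries came from the cerebellum and the cerebral cortex of 1-month-old mice, with 3 WT and 3 *Snx14*-KO mice in each tissue. *Snx14*-KO mice are homozygous for a 1 bp deletion that shifts the reading frame of *Snx14* in every cell. The allele was made with Cas9 in C57BL/6J embryos and backcrossed to C57BL/6J, so all *Snx14*-KO mice carry the deletion of 1 line. The mice were otherwise untreated, and the labels name the cell type of every sample as a mix. According to the labels, WT mouse 1, 2 and 3 and *Snx14*-KO mouse 1, 2 and 3 each gave both tissues.

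Astrocytes that become reactive make more of the intermediate filament proteins GFAP and vimentin. Cytokines of the interleukin 6 family signal through gp130 and the transcription factor STAT3, which drives much of this program. Transcriptome studies of isolated mouse astrocytes have described genes that are raised after both inflammation and ischaemia, and genes that are raised mainly after 1 of them. Bergmann glia, the astrocytes of the Purkinje cell layer, express vimentin also in the healthy adult cerebellum. In whole tissue, fewer cells of a type and less RNA per cell cannot be told apart, and several of these genes are also made by microglia, endothelial cells or meningeal cells.

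Levels are CPM, counts scaled to a common library size, after TMM normalization within the 6 libraries of a tissue, so that levels in cerebellum and cortex are on separate scales unless another is named. The libraries held 16672589 to 19887427 counts on genes. *Snx14* was at 65.9 to 70.6 CPM in WT and 10.8 to 11.9 CPM in *Snx14*-KO cerebella, and at 51.1 to 57.0 CPM in WT and 7.32 to 8.12 CPM in *Snx14*-KO cortices. A gene was called when its adjusted p by edgeR's quasi-likelihood test was under 0.05 and its log2 fold change was over 0.5 in either direction. An unadjusted p is that of edgeR's test unless DESeq2 is named. Some libraries stood apart. In cortex, *Snx14*-KO mouse 2 was the highest library by at least 1.5 times for 2.21% of 18255 genes tested. In cerebellum, *Snx14*-KO mouse 3 was so for 1.71% of 18201 genes, and WT mouse 3 for 1.79%. Choroid plexus genes ranged from 75.8 to 7745 summed CPM among WT cerebella.

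*Reactive astrocyte genes were higher in Snx14-KO tissue in most cases, but 1 mouse per tissue carried the largest values.* In cerebellum, 28 of the 31 members tested had a higher fitted level in *Snx14*-KO than in WT mice. Their median log2 fold change was 0.40, whereas the median over all genes was -0.00062. Of the 31, 0 were called by edgeR, which called 0.00549% of all genes, and 0 by DESeq2, which called 0.901%. In each tissue, the 1 gene that edgeR called was *Snx14* itself. Only edgeR without a filter on low counts called members, 3 in cerebellum (1.1% of all genes) and 8 in cortex (0.472% of all genes). Without adjustment, 11 members had a p under 0.05 and were higher, where the share over all genes was 5.78%. All 3 *Snx14*-KO cerebella lay above all 3 WT cerebella for 8 members (*Gfap*, *Lcn2*, *Osmr*, *Hsbp1l1*, *Srgn*, *Amigo2*, *Ggta1* and *Cd14*) and for 6.99% of all genes. *Lcn2*, counted among both the 11 and the 8, passed the filter on low counts only through the *Snx14*-KO cerebella.

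In cortex, 20 of the 26 members tested were higher in *Snx14*-KO mice and 6 were lower. The median log2 fold change was 0.27, and 0 members were called by edgeR (0.00548% of all genes) or by DESeq2 (0.053%). DESeq2 gave no adjusted p in cortex to *Osmr*, *Aspg*, *Hsbp1l1*, *Clcf1*, *Emp1*, *Cd109*, *B3gnt5*, *Cd14* and *Socs3*, so it could not call them. An unadjusted p under 0.05 was found for 6 members, all higher, beside 2.24% of all genes. The *Snx14*-KO cortices lay above the WT cortices for 4 members, *Gfap*, *Vim*, *Emp1* and *Cd109*, and for 4.51% of all genes. In cortex, 7 members had too few counts to be tested, and *Slc10a6* and *Tgm1* had too few in cerebellum.

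The highest library differed between the tissues. In cortex, *Snx14*-KO mouse 2 was the highest of the 6 libraries for 20 of 26 members (76.9%, beside 23.5% of all genes), and for 12 of them (46.2%) it was at least 1.5 times the next. In cerebellum, *Snx14*-KO mouse 3 was the highest for 18 of 31 members (58.1%, beside 20.7% of all genes), and by at least 1.5 times for 7 (22.6%). The shares at least 1.5 times the next stood above those of all genes, at 2.21% and 1.71%. In the other tissue of these mice, as the labels pair them, *Snx14*-KO mouse 2 was the highest cerebellum for 7 of 31 members (22.6%, beside 14.1% of all genes). *Snx14*-KO mouse 3 was the highest cortex for 1 of 26 (3.85%, beside 15.3%). In each case this held for 0 members by at least 1.5 times. In the cortex of *Snx14*-KO mouse 3, 13 of 26 members lay within the range of the WT cortices, 8 above it and 5 below it. In the cerebellum of *Snx14*-KO mouse 2, 16 of 31 members lay above the WT range and 13 within it.

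Leaving out these libraries left different pictures in cerebellum and cortex. Without *Snx14*-KO mouse 3, 26 of 31 members still had a positive log2 fold change in cerebellum, and the median was 0.30. An unadjusted p under 0.05 was left for 5 (*Gfap*, *Osmr*, *Emp1*, *Lcn2* and *Cd14*), beside 3.27% of all genes, and 9 had both remaining *Snx14*-KO cerebella above the WT cerebella, where 10% of all genes did. Without *Snx14*-KO mouse 2, 15 members were higher and 11 lower in *Snx14*-KO cortices, and the median fell to 0.08. The members with an unadjusted p under 0.05 were then *Gfap* and *Emp1*, beside 1.77% of all genes. Both remaining *Snx14*-KO cortices lay above the WT cortices for 4 members (9.64% of all genes) and below them for 2 (9.97%).

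**Figure D1:**
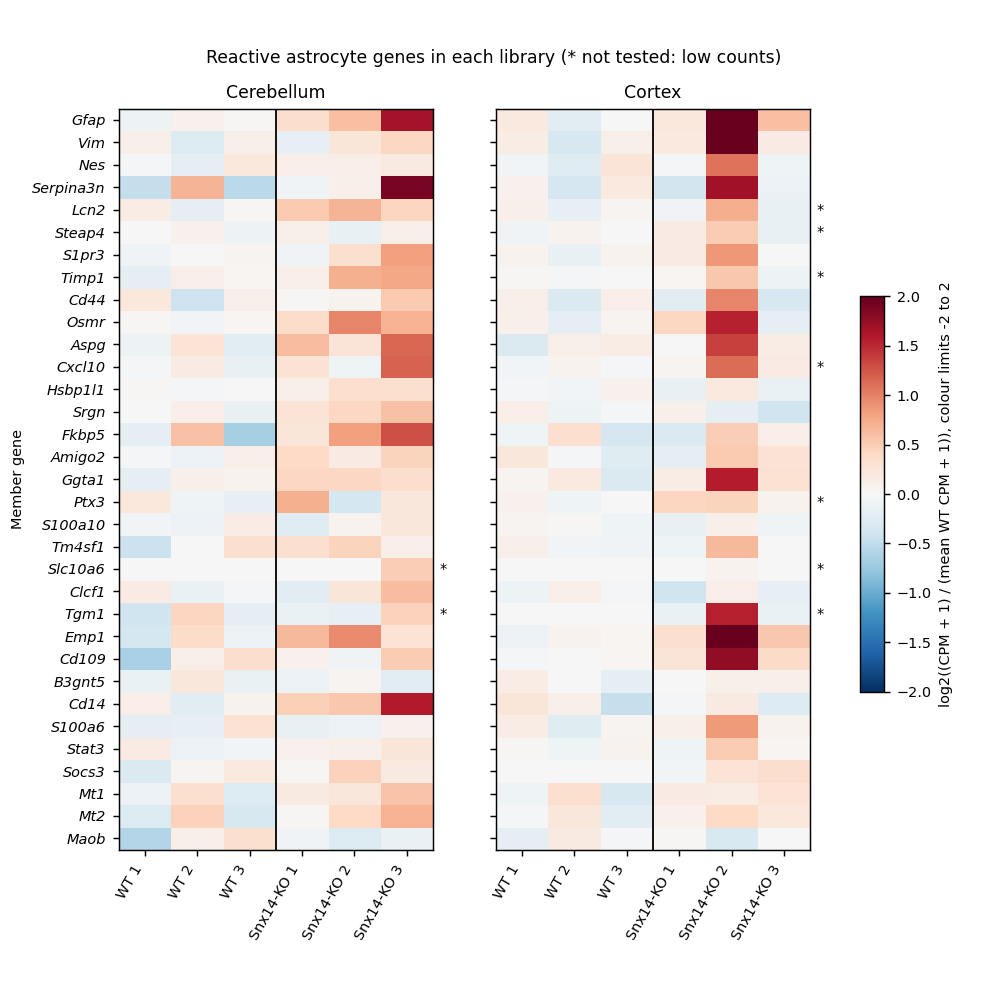
Each cell is the log2 ratio of a member's CPM in 1 library to the mean of the WT libraries of the tissue, after adding 1 CPM to both. Columns are the 3 WT and 3 *Snx14*-KO mice, rows are the 33 members, and stars mark members that were not tested because of low counts. The column of *Snx14*-KO mouse 2 is the darkest in cortex, and that of *Snx14*-KO mouse 3 in cerebellum.

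*Intermediate filaments.* *Gfap*, the filament gene by which reactive astrocytes are usually recognised, is a gene of chromosome 11 (GRCm38 102887336 to 102900912, minus strand). In cerebellum, it was at 285, 323 and 309 CPM in WT mice 1, 2 and 3 and at 390, 465 and 971 CPM in *Snx14*-KO mice 1, 2 and 3. All *Snx14*-KO cerebella were above all WT cerebella, and *Snx14*-KO mouse 3 was at more than 2 times the next library. The means were 306 ± 19.5 and 609 ± 316 CPM (SD, n = 3 each), a log2 fold change of 0.99 with a standard error of 0.286. It did not pass the test (adjusted p = 0.358 by edgeR). Without *Snx14*-KO mouse 3, the log2 fold change of *Gfap* in cerebellum was 0.48 ± 0.0973 (SE).

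In cortex, *Gfap* was at 189, 141 and 166 CPM in WT mice and at 192, 1002 and 250 CPM in *Snx14*-KO mice. *Snx14*-KO mouse 2 was at 6.07 times the WT mean, while mouse 1 was just above the highest WT cortex. This gave a log2 fold change of 1.54 (SE 0.465, adjusted p = 0.996 by edgeR), and 0.42 (SE 0.120) without *Snx14*-KO mouse 2. The difference between the effects in the tissues was -0.57 with a standard error of 0.666, which covers a wide range on either side of 0.

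*Vim* encodes vimentin, a filament protein of Bergmann glia, reactive astrocytes, endothelium and fibroblasts. Its levels in cortex were 22.4, 15.9 and 21.8 CPM in WT and 23.2, 122 and 22.7 CPM in *Snx14*-KO mice. Only *Snx14*-KO mouse 2 stood apart, at 6.07 times the WT mean, while the other *Snx14*-KO cortices exceeded the highest WT cortex by less than 1 CPM. Its log2 fold change was 1.49 (SE 0.517, adjusted p = 0.996 by edgeR) and fell to 0.20 without that mouse. In cerebellum, where *Vim* was at 254, 194 and 254 CPM in WT and at 209, 277 and 312 CPM in *Snx14*-KO mice, the genotypes overlapped. *Nes* encodes nestin, a filament protein of neural progenitors. It was at 5.99, 5.13 and 7.70 CPM in WT cortices and at 6.15, 14.4 and 5.84 CPM in *Snx14*-KO cortices, again with mouse 2 alone above WT. In cerebellum, *Nes* stayed between 6.21 and 8.60 CPM in all 6 libraries.

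**Figure D2:**
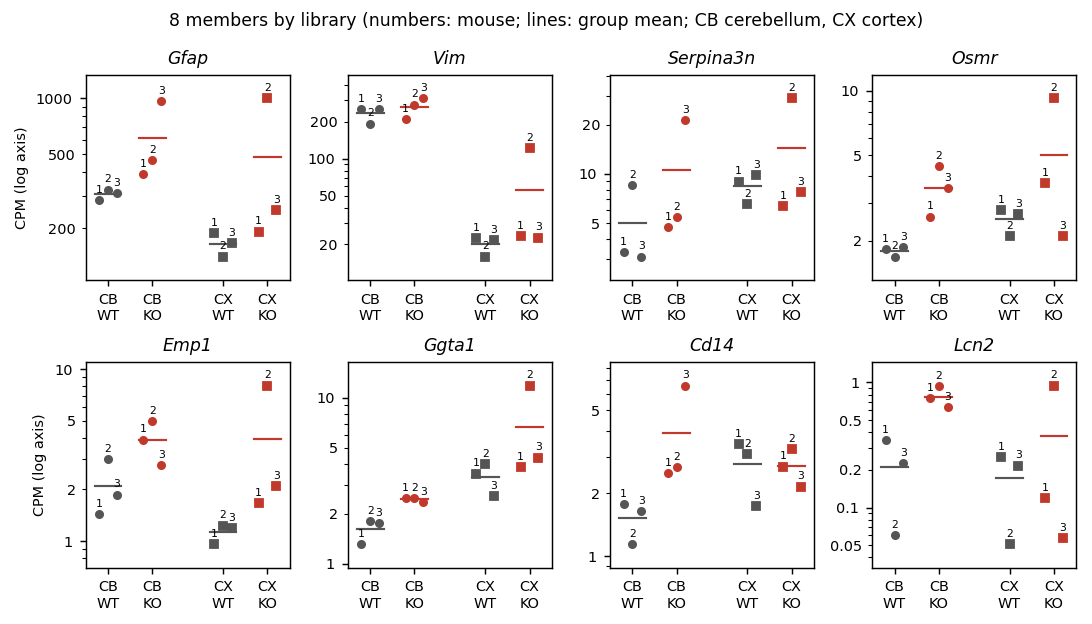
CPM of 8 members in every library on log axes, with circles for cerebellum, squares for cortex, WT in grey, *Snx14*-KO in red, mouse numbers beside the points and a line at each group mean. *Gfap* in *Snx14*-KO mouse 2 reached 1002 CPM in cortex, and *Snx14*-KO mouse 3 reached 971 CPM in cerebellum.

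Promoter sequences of the members were examined for the palindrome TTCNNNGAA, to which STAT proteins bind, since STAT3 is itself a member. RefSeq windows of GRCm38.p6, from 250 bases before to 50 bases after a transcription start, were given for 27 of the 33 members, and matches on either strand were counted. The palindrome was found in 5 of the 27 members (18.5%) and in 9.55% of all 27025 genes with a window. The 5 were *Gfap*, *Emp1*, *Tgm1*, *Socs3* and *Steap4*. *Socs3* held it from -154 and *Steap4* from -116, counted from the start with no base 0. The sequences of *Gfap*, *Emp1* and *Tgm1* are shown because each of these genes was at 6.07 times its WT mean or more in the cortex of *Snx14*-KO mouse 2. *Vim* (6.07 times) and *Cxcl10* (8.27 times) were as high there, and their windows hold no match. Each sequence runs from 180 bases before the start to 10 bases into the transcript, 5′ to 3′, with the palindrome in capitals.
Gfap, chr11:102897191-102897380, minus strand: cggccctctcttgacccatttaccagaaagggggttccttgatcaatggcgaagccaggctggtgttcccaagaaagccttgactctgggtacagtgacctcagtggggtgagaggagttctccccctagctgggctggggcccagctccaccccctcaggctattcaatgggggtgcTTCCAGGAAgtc
Emp1, chr6:135362751-135362940, plus strand: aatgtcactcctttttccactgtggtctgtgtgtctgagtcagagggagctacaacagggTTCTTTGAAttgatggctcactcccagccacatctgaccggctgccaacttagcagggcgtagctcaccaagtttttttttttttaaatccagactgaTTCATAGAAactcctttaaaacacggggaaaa
Tgm1, chr14:55713483-55713672, minus strand: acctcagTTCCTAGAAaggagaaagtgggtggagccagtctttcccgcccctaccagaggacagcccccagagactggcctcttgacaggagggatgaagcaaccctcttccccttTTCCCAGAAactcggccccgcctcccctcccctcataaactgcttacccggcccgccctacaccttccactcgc
In *Gfap* the match spans the start itself, from -2 to 7. *Emp1* has 1 match at -120 and another at -22, and *Tgm1* has matches at -173 and -64; each has a second RefSeq window without a match. At least 2 matches were found in 0.457% of all 32851 windows. A match is a run of letters and shows no binding.

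*Members raised in both injury models.* This group holds 10 genes that astrocytes raise after both inflammation and ischaemia. In cerebellum, the fitted level of all 10 was above WT in *Snx14*-KO mice. Their median log2 fold change was 0.98, and 4 had an unadjusted p under 0.05 (*Lcn2*, *Osmr*, *Aspg* and *Timp1*), beside 5.78% of all genes. When *Snx14*-KO mouse 3 was left out, the median was 0.33 and *Lcn2* and *Osmr* alone had such a p, beside 3.27% of all genes. In cortex, 5 of the 6 tested were higher, with a median of 0.61. *Osmr* alone had an unadjusted p under 0.05 by edgeR, beside 2.24% of all genes. By DESeq2, *Aspg*, *Cxcl10* and *Osmr* had one. Leaving out *Snx14*-KO mouse 2 gave a cortical median of -0.08.

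*Osmr*, the oncostatin M receptor that pairs with gp130, had the lowest p of the members in cerebellum. It was at 1.84, 1.69 and 1.87 CPM in WT and at 2.596, 4.48 and 3.52 CPM in *Snx14*-KO mice, with no overlap. For *Osmr* the log2 fold change was 0.97 (SE 0.266, adjusted p = 0.340 by edgeR), and it was 0.96 (SE 0.309) without *Snx14*-KO mouse 3. In cortex, the levels of *Osmr* were 2.79, 2.10 and 2.66 CPM in WT and 3.70, 9.23 and 2.10 CPM in *Snx14*-KO mice. There, *Snx14*-KO mouse 3 was level with the lowest WT cortex and mouse 2 stood far above all of them. It differed by 1.00 on the log2 scale with all cortices and 0.20 (SE 0.282) without mouse 2.

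*Lcn2*, the secreted iron-siderophore carrier lipocalin 2, had few counts but did not overlap between genotypes in cerebellum. It was at 0.344, 0.0603 and 0.226 CPM in WT and at 0.749, 0.930 and 0.634 CPM in *Snx14*-KO cerebella, from 1 to 6 and from 11 to 16 counts. The fit gave a log2 fold change of 1.83 (SE 0.551, adjusted p = 0.383 by edgeR) and one of 1.94 (SE 0.637) without mouse 3. *Lcn2* passed the filter on low counts only through the *Snx14*-KO cerebella. Its p and its lack of overlap are therefore no support for a rise. In cortex, *Lcn2* was not tested. It had 18 counts in *Snx14*-KO mouse 2 and 1 to 5 counts in the other cortices.

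*Serpina3n* encodes a secreted serine protease inhibitor that is a common marker of reactive astrocytes. Its levels in cerebellum were 3.33, 8.56 and 3.11 CPM in WT and 4.74, 5.46 and 21.4 CPM in *Snx14*-KO mice. WT mouse 2 exceeded both other *Snx14*-KO cerebella, and the log2 fold change of 1.07 (SE 0.599) became 0.03 (SE 0.427) without *Snx14*-KO mouse 3. In cortex, it was at 8.98, 6.51 and 9.82 CPM in WT and at 6.33, 29.1 and 7.72 CPM in *Snx14*-KO mice. Its log2 fold change of 0.78 (SE 0.450) turned to -0.26 (SE 0.196) without *Snx14*-KO mouse 2. The other *Snx14*-KO libraries thus lay within or below the WT range for *Serpina3n* in both tissues.

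*Timp1*, an inhibitor of matrix metalloproteinases, was at 0.287, 0.603 and 0.509 CPM in WT and at 0.599, 1.39 and 1.498 CPM in *Snx14*-KO cerebella. *Snx14*-KO mouse 1 lay just under the highest WT cerebellum, and the log2 fold change was 1.299 (SE 0.482, adjusted p = 0.488 by edgeR). *Aspg*, an asparaginase, was at 1.78, 2.59 and 1.58 CPM in WT and at 3.59, 2.56 and 5.65 CPM in *Snx14*-KO cerebella. The log2 fold change of *Aspg* was 0.99 (SE 0.336, adjusted p = 0.445 by edgeR) in cerebellum and 0.63 (SE 0.320) without *Snx14*-KO mouse 3. In cortex, *Aspg* was at 1.57, 2.41 and 2.496 CPM in WT and at 2.15, 7.13 and 2.496 CPM in *Snx14*-KO mice, with mouse 2 far above WT and mouse 3 level with the highest WT cortex.

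*S1pr3* encodes a receptor for sphingosine 1-phosphate. In cerebellum, it was at 3.04, 3.26 and 3.40 CPM in WT and at 3.05, 4.30 and 6.45 CPM in *Snx14*-KO mice. In cortex, it was at 8.07, 6.77 and 8.03 CPM in WT and at 8.65, 14.7 and 7.602 CPM in *Snx14*-KO mice. The log2 fold changes of *S1pr3* were 0.50 (SE 0.277) and 0.44 (SE 0.221), and the genotypes overlapped in both tissues. They were 0.18 (SE 0.247) without *Snx14*-KO mouse 3 in cerebellum and 0.09 (SE 0.164) without *Snx14*-KO mouse 2 in cortex. *Cd44*, the hyaluronan receptor, was at 5.73, 4.05 and 5.80 CPM in WT and at 4.30, 11.2 and 3.97 CPM in *Snx14*-KO cortices. Its log2 fold change of 0.33 (SE 0.342) turned to -0.33 (SE 0.215) without *Snx14*-KO mouse 2. In cerebellum, *Cd44* was at 14.4, 9.04 and 13.5 CPM in WT and at 12.5, 13.0 and 18.2 CPM in *Snx14*-KO mice, with mouse 3 alone above WT.

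The remaining members of this group were low. *Cxcl10*, a chemokine induced by interferon, had 39 counts in *Snx14*-KO mouse 3 and 5 to 15 in the other cerebella, and 30 counts in *Snx14*-KO mouse 2 and 3 to 6 in the other cortices. *Steap4*, a metalloreductase, was at 0.407 to 0.699 CPM over all cerebella, with overlapping genotypes. It had 11 counts in the cortex of *Snx14*-KO mouse 2 and up to 4 in the other cortices. *Hsbp1l1* was at 2.77 to 2.93 CPM in WT and 3.195 to 3.89 CPM in *Snx14*-KO cerebella, without overlap (log2 fold change 0.34, SE 0.202, adjusted p = 0.773 by edgeR). In cortex, it was at 0.955 to 1.47 CPM in all libraries.

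*Members raised after inflammation.* In cerebellum, each of the 4 members of this group had an unadjusted p under 0.05 with higher *Snx14*-KO levels, beside 5.78% of all genes, and 3 of them did not overlap between the genotypes, beside 6.99%. When *Snx14*-KO mouse 3 was left out, 0 of the 4 had such a p (0.0610 to 0.136), and by DESeq2 2 did (*Amigo2* and *Srgn*). The median log2 fold change was 0.54 in cerebellum and 0.22 in cortex, and the cortical median was 0.01 without *Snx14*-KO mouse 2. *Ggta1*, an alpha-galactosyltransferase, was at 1.32, 1.81 and 1.75 CPM in WT and at 2.496, 2.499 and 2.36 CPM in *Snx14*-KO cerebella. The *Snx14*-KO cerebella lay close together, and the log2 fold change was 0.59 (SE 0.252, adjusted p = 0.583 by edgeR) with all and 0.61 (SE 0.293) without mouse 3. In cortex, *Ggta1* was at 3.50, 3.998 and 2.55 CPM in WT and at 3.82, 11.9 and 4.37 CPM in *Snx14*-KO mice, and the log2 fold change of 1.00 (SE 0.376) became 0.29 (SE 0.235) without mouse 2.

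*Amigo2*, an adhesion protein with leucine-rich repeats, was at 15.7, 14.6 and 17.8 CPM in WT and at 21.5, 18.1 and 22.3 CPM in *Snx14*-KO cerebella. The log2 fold change was 0.36 (SE 0.126, adjusted p = 0.455 by edgeR) and 0.30 (SE 0.142) without mouse 3. In cortex, *Amigo2* was at 4.83 to 7.10 CPM in WT and 5.13 to 8.92 CPM in *Snx14*-KO mice. *Srgn* encodes serglycin, a proteoglycan of secretory granules that immune and endothelial cells also make. It was at 5.57, 6.15 and 4.87 CPM in WT and at 6.89, 7.73 and 8.76 CPM in *Snx14*-KO cerebella, without overlap (log2 fold change 0.49, SE 0.165, adjusted p = 0.430 by edgeR). In cortex, *Srgn* was at 5.48, 4.56 and 4.77 CPM in WT and at 5.37, 4.20 and 3.52 CPM in *Snx14*-KO mice, a log2 fold change of -0.18 (SE 0.199).

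*Fkbp5*, a co-chaperone of the glucocorticoid receptor that glucocorticoids induce, varied between mice of the same genotype. It was at 10.2, 18.3 and 7.08 CPM in WT and at 14.3, 21.7 and 30.4 CPM in *Snx14*-KO cerebella. In cortex, it was at 28.2, 38.1 and 23.4 CPM in WT and at 24.3, 42.4 and 32.96 CPM in *Snx14*-KO mice. WT mouse 2 was the highest and WT mouse 3 the lowest WT library in both tissues, and *Snx14*-KO mouse 1 was the lowest *Snx14*-KO library in both. The genotypes overlapped, with log2 fold changes of 0.90 (SE 0.350, adjusted p = 0.520 by edgeR) in cerebellum and 0.16 (SE 0.195) in cortex.

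*Members raised after ischaemia.* Of 10 members, 8 were tested in cerebellum and 7 in cortex. In cerebellum, 7 were higher, with a median log2 fold change of 0.38 (0.22 without *Snx14*-KO mouse 3). Of these, *Cd14* and *Emp1* had an unadjusted p under 0.05, beside 5.78% of all genes. In cortex, 4 were higher and 3 lower, with a median of 0.11 (-0.04 without *Snx14*-KO mouse 2). There, *Emp1* and *Cd109* had an unadjusted p under 0.05, beside 2.24% of all genes.

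*Emp1*, a membrane protein of the tetraspan PMP22 family, had the lowest p among the members in cortex. It was at 0.964, 1.23 and 1.19 CPM in WT and at 1.67, 8.03 and 2.10 CPM in *Snx14*-KO cortices. Every *Snx14*-KO cortex lay above every WT cortex, with mouse 2 at 3.82 times the next library. The log2 fold change was 1.81 (SE 0.524, adjusted p = 0.990 by edgeR) and remained 0.74 (SE 0.319) without mouse 2. In cerebellum, *Emp1* was at 1.43, 3.01 and 1.87 CPM in WT and at 3.89, 4.998 and 2.77 CPM in *Snx14*-KO mice. Here *Snx14*-KO mouse 3 was the lowest of the *Snx14*-KO cerebella, and the log2 fold change was 0.89 (SE 0.330, adjusted p = 0.492 by edgeR) with it and 1.07 (SE 0.336) without it.

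*Cd109*, a membrane protein that binds transforming growth factor beta, was at 1.01, 1.08 and 1.14 CPM in WT and at 1.49, 6.09 and 1.70 CPM in *Snx14*-KO cortices. As for *Emp1*, the genotypes did not overlap, and the log2 fold change was 1.53 (SE 0.489, adjusted p = 0.996 by edgeR) with all cortices and 0.57 (SE 0.328) without mouse 2. In cerebellum, *Cd109* was at 0.803 to 2.604 CPM in WT and 1.69 to 3.00 CPM in *Snx14*-KO mice. *Tgm1*, a transglutaminase, was too low to be tested. In cortex, it had 46 counts in *Snx14*-KO mouse 2 and 1 to 3 counts in each of the other 5 cortices, whereas in cerebellum 0 to 14 counts were spread over both genotypes.

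*Cd14*, a co-receptor for lipopolysaccharide that microglia and macrophages also make, was at 1.78, 1.15 and 1.64 CPM in WT and at 2.496, 2.67 and 6.57 CPM in *Snx14*-KO cerebella. The genotypes did not overlap, and the log2 fold change was 1.35 (SE 0.410, adjusted p = 0.386 by edgeR), or 0.75 (SE 0.309) without mouse 3. In cortex, the levels of *Cd14* were 3.45, 3.08 and 1.74 CPM in WT and 2.69, 3.25 and 2.16 CPM in *Snx14*-KO mice, a log2 fold change of -0.03 (SE 0.283). Of the 32 members in the test of a difference between the tissues, 0 were called by edgeR, which called 0% of all genes, and 0 by DESeq2, which called 0.189%. *Cd14* (difference 1.36, SE 0.531, adjusted p = 0.747 by edgeR) and *Srgn* (difference 0.66, SE 0.258, adjusted p = 0.749 by edgeR) were the 2 members with an unadjusted p under 0.05, while 5.68% of all genes had one. Both differences had the larger value in cerebellum.

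*Clcf1*, a cytokine of the interleukin 6 family, was at 1.32, 0.904 and 1.02 CPM in WT and at 0.799, 1.45 and 2.19 CPM in *Snx14*-KO cerebella. The genotypes overlapped (log2 fold change 0.44, SE 0.410, or 0.04, SE 0.423, without mouse 3), and in cortex it was at 0.239 to 0.787 CPM in all libraries. *S100a10*, an annexin partner, was at 29.0 to 40.5 CPM in all cerebella and 21.1 to 25.3 CPM in all cortices. *B3gnt5*, which builds lacto-series glycolipids, was at 28.2 to 39.3 and 1.03 to 1.57 CPM, and *Tm4sf1*, a membrane protein also of endothelium, was at 11.6 to 22.3 and 8.77 to 15.2 CPM. The genotypes overlapped for all 3. *Ptx3*, a secreted pentraxin, had 3 to 29 counts per cerebellum and 4 to 14 per cortex. *Slc10a6*, a transporter of sulphated steroids, had 7 counts in the cerebellum of *Snx14*-KO mouse 3, 1 count in the cortex of *Snx14*-KO mouse 2 and 0 in every other library.

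*Other members.* *Stat3*, *Socs3*, *S100a6*, *Mt1*, *Mt2* and *Maob* had log2 fold changes of -0.17 to 0.40 in cerebellum and -0.09 to 0.43 in cortex, and none had an unadjusted p under 0.05. *Stat3* was at 38.2 to 46.6 CPM in WT and 44.3 to 49.4 CPM in *Snx14*-KO cerebella. In cortex, it was at 40.9, 37.8 and 42.4 CPM in WT and at 37.8, 58.0 and 41.5 CPM in *Snx14*-KO mice, with mouse 2 alone above WT. *Socs3*, the feedback inhibitor that STAT3 induces, was at 0.975 to 1.75 and 1.45 to 2.32 CPM in WT and *Snx14*-KO cerebella. In cortex, *Socs3* was at 2.99 to 3.04 CPM in WT and at 2.86, 3.88 and 4.14 CPM in *Snx14*-KO mice, so that here mouse 3 was the highest. *S100a6*, a calcium-binding protein, was at 10.5, 7.74 and 9.71 CPM in WT and at 10.1, 17.6 and 9.76 CPM in *Snx14*-KO cortices, and at 11.9 to 17.3 CPM in all cerebella. *Maob*, a monoamine oxidase of astrocytes, was at 18.3 to 35.2 CPM in all cerebella and 20.8 to 29.5 CPM in all cortices, and the cortex of *Snx14*-KO mouse 2 was the lowest.

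*Mt1* and *Mt2* encode metallothioneins, metal-binding proteins that respond to zinc and to glucocorticoids. Per kilobase of exon, they had the highest levels of all members in WT cerebella, at 342 CPM for *Mt1* and 452 CPM for *Mt2*, beside 72.5 CPM for *Gfap*. Of the exon bases of *Mt2*, 73.5% are shared with *Gm45774* on the other strand, and since the counting did not use strand, their reads cannot be told apart. In cerebellum, *Mt1* was at 394, 532 and 354 CPM in WT and at 481, 499 and 634 CPM in *Snx14*-KO mice. In cortex, *Mt1* was at 207, 274 and 175 CPM in WT and at 245, 242 and 264 CPM in *Snx14*-KO mice. WT mouse 2 was the highest and WT mouse 3 the lowest WT library in both tissues, as for *Fkbp5*. For *Mt2*, the same order held, at 219, 366 and 213 CPM in WT cerebella and at 104, 126 and 91.0 CPM in WT cortices. The *Snx14*-KO mice had *Mt2* at 271, 349 and 432 CPM in cerebellum and at 113, 142 and 124 CPM in cortex. The genotypes overlapped for both genes in both tissues.

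**Figure D3:**
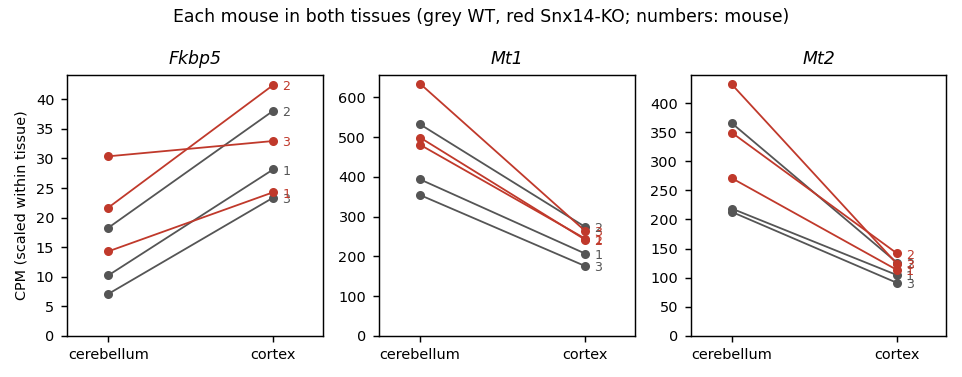
CPM of *Fkbp5*, *Mt1* and *Mt2* in the cerebellum and cortex of each mouse, scaled within each tissue, with a line joining the tissues of a mouse, WT in grey and *Snx14*-KO in red. The line of WT mouse 2 is the highest of the WT lines and that of WT mouse 3 the lowest in all 3 panels.

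The promoters of *Mt1* and *Mt2* are shown because their levels followed the same order of WT mice. They were searched on both strands for the metal response element, written TGCACNC or TGCGCNC, and are given from 230 bases before to 12 bases after the RefSeq start, with matches in capitals.
Mt1, chr8:94178859-94179100, plus strand: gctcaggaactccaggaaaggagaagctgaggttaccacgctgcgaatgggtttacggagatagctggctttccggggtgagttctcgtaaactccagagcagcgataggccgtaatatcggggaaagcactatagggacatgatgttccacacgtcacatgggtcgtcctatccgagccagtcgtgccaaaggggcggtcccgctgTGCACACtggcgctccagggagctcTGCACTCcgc
Mt2, chr8:94172388-94172629, plus strand: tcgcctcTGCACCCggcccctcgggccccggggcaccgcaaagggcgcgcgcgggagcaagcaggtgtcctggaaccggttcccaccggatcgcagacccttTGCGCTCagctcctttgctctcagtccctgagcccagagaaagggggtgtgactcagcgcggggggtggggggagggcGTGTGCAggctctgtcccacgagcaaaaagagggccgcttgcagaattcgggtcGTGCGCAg
*Mt2* has 4 matches, all in the stretch shown, and *Mt1* has 3, of which 2 are shown. At least 3 matches were found in 1.97% of all windows and at least 4 in 0.517%. The element was found at least once in 8 of 27 members with a window (29.6%) and in 28.2% of all genes.

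*Genes of the same program and of other cell types.* Of 12 further genes from the same reactive panels, 11 were tested in cerebellum and 10 of these had higher fitted levels in *Snx14*-KO mice. The median over them was 0.56 on the log2 scale, 5 had an unadjusted p under 0.05 (*Cp*, *H2-T23*, *Serping1*, *Gbp2* and *Sphk1*), 0 were called by edgeR and 1 by DESeq2, beside 5.78%, 0.00549% and 0.901% of all genes. *Serping1*, the C1 inhibitor, was at 10.3, 16.2 and 11.7 CPM in WT and at 17.7, 22.3 and 23.3 CPM in *Snx14*-KO cerebella (log2 fold change 0.73, SE 0.182, adjusted p = 0.271 by edgeR). In cortex, 10 of the 12 were higher, with a median of 0.25, and the median was -0.04 without *Snx14*-KO mouse 2. *Serping1* was at 4.01, 3.74 and 2.604 CPM in WT and at 4.48, 16.1 and 4.14 CPM in *Snx14*-KO cortices, with mouse 2 far above the rest.

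The gp130 and STAT3 pathway, which carries the signal of *Osmr* and *Clcf1*, had 12 of 17 genes above WT in *Snx14*-KO cerebella (median 0.07 on the log2 scale) and 8 of 16 in cortices (median -0.01). None had an unadjusted p under 0.05 in either tissue. *Il6st*, which encodes gp130, was at 78.6, 78.6 and 83.3 CPM in WT and at 79.2, 121 and 80.4 CPM in *Snx14*-KO cortices, so mouse 2 stood apart here too. The cytokines *Il6*, *Osm* and *Lif* stayed under 1 CPM in every library.

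The libraries that stood apart differed in which other markers moved with the members. A list score is the mean over the tested genes of a list of log2(CPM + 1), minus its average over the 6 libraries of the tissue. In the cortex of *Snx14*-KO mouse 2, the members scored 0.70, while the other 5 cortices scored -0.19 to -0.08. The same cortex scored 0.02 on 15 genes of homeostatic astrocytes and Bergmann glia, whose summed level of 6794 CPM lay below the 7079 to 8159 CPM of WT. These genes went both ways: *Aqp4*, the astrocyte water channel, was at 269 CPM beside 143 to 180 CPM in WT, while *Slc1a2*, a glutamate transporter, was at 3173 CPM beside 3614 to 4147 CPM. It scored 0.19 on 14 microglia and macrophage genes, whose summed level was 673 CPM beside 548 to 626 CPM in WT. Its score of 0.31 on 12 endothelial and mural genes was the highest of the cortices (279 CPM summed, beside 194 to 248 CPM in WT), and 12 of 12 of these genes had a positive log2 fold change in cortex. It scored 1.08 on 11 meningeal fibroblast genes (351 CPM summed, beside 89.2 to 136 CPM in WT) and -0.51 on 10 oligodendrocyte genes (5492 CPM, beside 7786 to 8124 CPM in WT). For oligodendrocyte genes, *Snx14*-KO mouse 1 (7169 CPM) also lay below the WT range and mouse 3 (7828 CPM) within it. Of these genes, 10 of 10 had a negative log2 fold change in cortex. *Col1a1* was at 36.0 CPM there and at 6.66 to 9.84 CPM in the other cortices.

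In the cerebellum of *Snx14*-KO mouse 3, the members scored 0.41 and microglia and macrophage genes 1.21, with a summed level of 824 CPM beside 268 to 340 CPM in WT and 311 and 349 CPM in the other *Snx14*-KO cerebella. *Cd68*, a lysosomal protein of phagocytes, was at 29.6 CPM in that library and at 2.26 to 6.63 CPM in the other cerebella. *P2ry12*, a receptor of resting microglia, was at 20.1 CPM there and at 12.3 to 16.6 CPM elsewhere. The homeostatic astrocyte list scored 0.16, the highest of the cerebella, and 13 of its 15 genes had a positive log2 fold change in cerebellum (median 0.23). On 6 genes of granule and Purkinje cells, that library had the lowest score of the cerebella, -0.25, with a summed level of 4431 CPM beside 5168 to 6122 CPM in WT. *Snx14*-KO mouse 1 (5072 CPM) was also below the WT range, and mouse 2 (5902 CPM) was within it. The log2 fold change was negative for 6 of 6, from -0.34 for *Cbln1* to -0.06 for *Calb1* and -0.00078 for *Pcp2*.

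Meningeal fibroblast genes were higher in all *Snx14*-KO cerebella, at 473.5 to 500.4 CPM summed beside 172 to 354 CPM in WT, and 11 of 11 tested had a positive log2 fold change. Of these, 9 had an unadjusted p under 0.05, 9 did not overlap between the genotypes, 0 were called by edgeR and 8 were called by DESeq2, which called 0 members, where the shares of all genes were 5.78%, 6.99%, 0.00549% and 0.901%. With no gene of these marker lists at 0 in a whole tissue, meningeal, microglial and endothelial RNA was present in every group, and the part of these cells and of the neuronal genes in the members' differences was not tested.

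**Figure D4:**
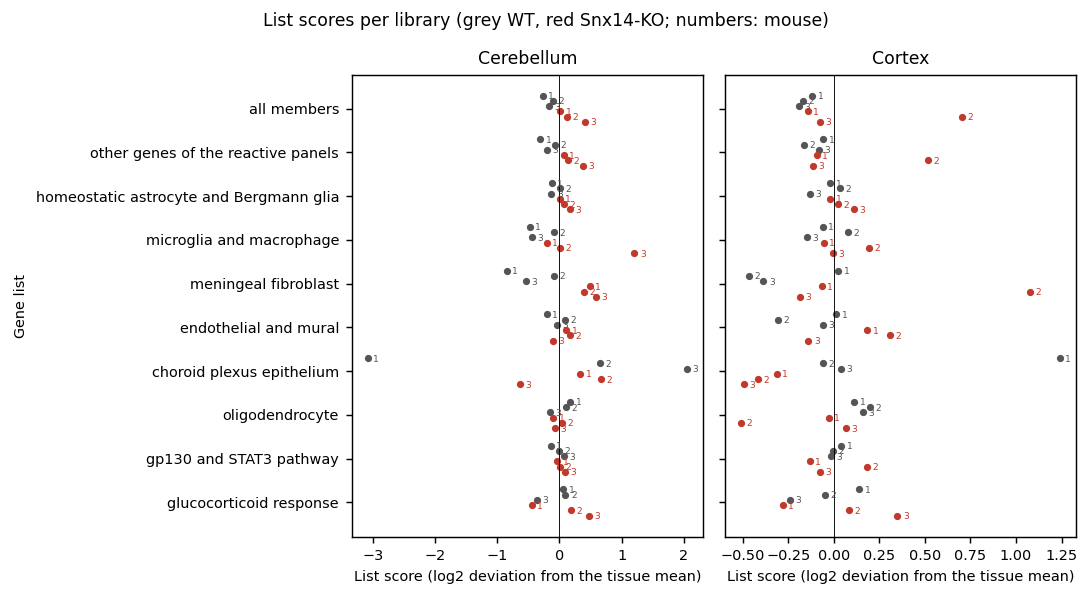
List scores of the members, of related gene lists and of cell type markers in every library, with WT in grey, *Snx14*-KO in red and the mouse number beside each point; the horizontal axes differ between tissues. *Snx14*-KO mouse 2 has the highest score for members and meningeal fibroblasts in cortex (0.70 and 1.08), and *Snx14*-KO mouse 3 for members and microglia in cerebellum (0.41 and 1.21).

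*Levels in WT tissue.* In WT mice, 16 of the 26 members tested differed between the tissues by edgeR, 9 higher and 7 lower in cerebellum, where 40.4% of all genes were called. Each mouse gave both tissues, and the same fit with the mouse as a block also called 16, but 10 higher and 6 lower: *Steap4* was added and *Osmr* was lost (adjusted p = 0.0685 by edgeR). For this comparison, CPM were scaled over the 6 WT libraries together. The largest difference was that of *B3gnt5*, from 1.37 ± 0.282 CPM in cortex to 31.7 ± 4.96 CPM (SD, n = 3 each), a log2 fold change of 4.53 (SE 0.183, adjusted p = 8.71e-09 by edgeR). *Vim* was at 20.9 ± 3.76 CPM in cortex and 223 ± 33.6 CPM in cerebellum (SD, n = 3 each), a log2 fold change of 3.42 (SE 0.149, adjusted p = 1.53e-08 by edgeR). *Gfap* was also higher in WT cerebellum, by 0.76 on the log2 scale (SE 0.0999, adjusted p = 7.99e-05 by edgeR). With all 12 libraries scaled together, *Vim* in the cortex of *Snx14*-KO mouse 2 (127 CPM) remained below WT cerebella (186 to 247 CPM), whereas *Gfap* (1047 CPM) exceeded them (276 to 309 CPM). *Amigo2*, *Mt2*, *Hsbp1l1*, *Cd44*, *Mt1* and *Tm4sf1* were higher in cerebellum by 0.66 to 1.31 on the log2 scale.

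Lower in WT cerebellum than in WT cortex were *Fkbp5*, *S1pr3*, *Socs3*, *Ggta1*, *Cd14*, *Serpina3n* and *Osmr*. Over 10 alternatives, the call of *Osmr* was lost in 8 (DESeq2 among them, adjusted p = 0.169), that of *Serpina3n* in 4 and that of *Cd14* in 3, the latter pair when a library was left out. On the other side, *Tm4sf1* was lost in 2 of those, and *Steap4* was added in 6. *Cd109*, *Emp1* and *S100a6* (adjusted p = 0.0209, 0.0317 and 0.0318 by edgeR) were added when WT cerebellum 1 was left out, which gave 12 members higher in cerebellum. *Fkbp5* had a log2 fold change of -1.46 (SE 0.291, adjusted p = 0.00147 by edgeR) and *S1pr3* one of -1.36 (SE 0.164, adjusted p = 4.37e-05 by edgeR). *Serpina3n* (log2 fold change -0.88, adjusted p = 0.04997 by edgeR) overlapped between the tissues, whereas *Cd14* (-0.98, adjusted p = 0.0215 by edgeR) did not, at 1.09 to 1.71 CPM in cerebellum and 1.81 to 3.59 CPM in cortex. Each of the 3 injury groups had called members on either side. *Stat3* (-0.08), *Srgn* (0.04), *Nes* (0.09) and *Maob* (-0.01) differed little, with standard errors of 0.0932, 0.172, 0.194 and 0.197.

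**Figure D5:**
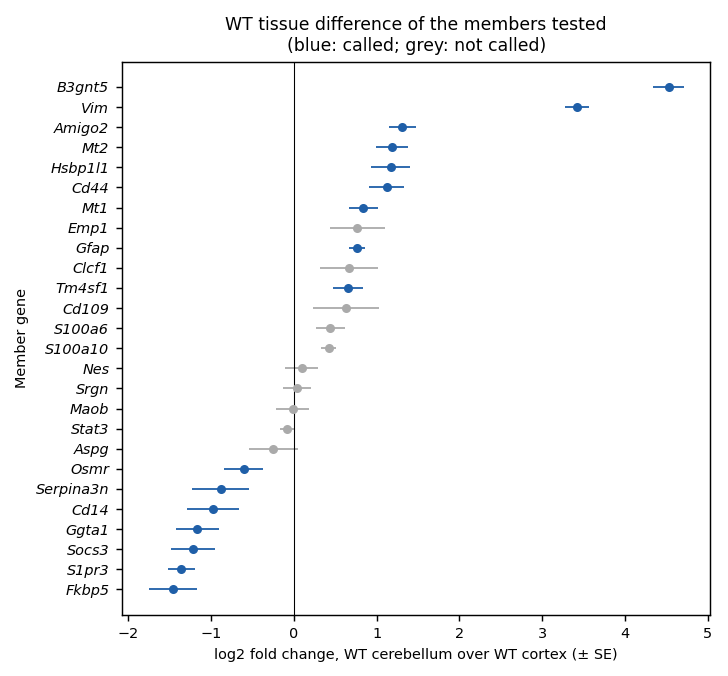
Log2 fold change of the 26 members tested between WT cerebellum and WT cortex, with bars for the standard error, called members in blue and others in grey. *B3gnt5* (4.53) and *Vim* (3.42) stand apart from the other members, which lie between -1.46 and 1.31.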

How the data were processed

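RNA-Seq of 12 libraries was analysed. The authors mapped trimmed reads to GRCm38 with STAR and deposited raw read pair counts per gene from featureCounts of Subread 2.0.1, made without strand, with pairs that overlap several genes counted for each. Pairs on shared exons therefore count for both genes. Gene names came from GENCODE vM21. Spike-ins and features with numbered IDs were left out. Members, gene lists, the rule for members given in full and tests were chosen with earlier results of these data known.

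Genotypes within a tissue, WT tissues, and the genotype by tissue interaction were fitted over all genes with edgeR 4.0.16 in R 4.3.3 (quasi-likelihood test, TMM, filterByExpr, Benjamini-Hochberg adjustment). Standard errors are the log2 fold change divided by the square root of F. Calls needed an adjusted p under 0.05 and, except for the interaction, an absolute log2 fold change over 0.5. The fits were tested on simulated counts with the same dispersion for all genes and no library that stood apart. That test therefore does not cover data where single libraries stand apart. DESeq2 1.42.0, RLE size factors, no filter on low counts, a fit of all 12 libraries, a replicate block and leaving out each library were alternatives. Members given in full had, in either tissue, an unadjusted p under 0.05, or at a mean of at least 1 CPM a log2 fold change of at least 0.5 or a highest *Snx14*-KO library of at least 1.5 times the highest WT library.

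No libraries were identical. P-values measure the spread between 3 mice per group. The tissues are paired by the mouse named in the labels. Deviations of the same mouse in both tissues correlated at 0.075 to 0.168 across genes in WT and 0.0133 to 0.341 in *Snx14*-KO mice. Those of different mice correlated at -0.125 to -0.0330 in WT and -0.280 to 0.154 in *Snx14*-KO mice. The 0.154 was between *Snx14*-KO mouse 3 in 1 tissue and mouse 2 in the other. It exceeded the values of mouse 2 (0.0133) and mouse 3 (0.118) with themselves, so the correlations do not bear out the pairing of these 2 mice.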

Additional observations from a re-analysis of the deposited data

How the results depend on the processing

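In cerebellum, edgeR called 1 gene, DESeq2 179, edgeR without a filter on low counts 347 and the fit of all 12 libraries 45, and leaving out a library gave 1 to 254. In cortex these counts were 1, 7, 149 and 2, and 1 to 2. For the difference between the tissues, edgeR called 0 genes (1100 at an unadjusted p under 0.05), DESeq2 36, no filter 418, and leaving out a library gave 0 to 257. Without the filter, 3 members were called in cerebellum (*Gfap*, *Fkbp5* and *Cd14*), 8 in cortex (*Gfap*, *Vim*, *Emp1*, *Cd109*, *Ggta1*, *Serpina3n*, *Osmr* and *Tgm1*) and 3 in their difference (*Vim*, *Gfap* and *Fkbp5*); the cause was not tested. No other alternative called a member in these comparisons. The median over the members ranged from 0.30 to 0.51 in cerebellum and from 0.08 to 0.43 in cortex when a library was left out.

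Genotypes shared only mouse numbers, whose deviations correlated at -0.119 to 0.0703. With the number as replicate block, 1 gene was called in cerebellum, 1 in cortex, 0 for their difference and 7660 rather than 7496 between WT tissues, and the medians of the members were 0.38 and 0.25. Members whose direction turned when 1 library was left out, none of them called by edgeR with the filter on low counts, ranged as follows on the log2 scale. In cerebellum: *Steap4* -0.0476 to 0.296, *Ptx3* -0.127 to 1.12, *S100a10* -0.0862 to 0.148, *Cd109* -0.0679 to 0.634, *B3gnt5* -0.179 to 0.0437, *S100a6* -0.162 to 0.121, *Maob* -0.397 to 0.0259. In cortex: *Nes* -0.0633 to 0.721, *Serpina3n* -0.262 to 1.13, *Cd44* -0.329 to 0.588, *Hsbp1l1* -0.276 to 0.0667, *Fkbp5* -0.0616 to 0.369, *S100a10* -0.121 to 0.00894, *Tm4sf1* -0.0408 to 0.396, *B3gnt5* -0.033 to 0.261, *Cd14* -0.271 to 0.163, *Stat3* -0.0257 to 0.301, *Maob* -0.178 to 0.0176. Of the values under alternatives of *Snx14*, of members tested within a tissue, of *Cd14* and *Srgn* for the difference between the tissues and of the 16 members called between WT tissues, 788 kept direction and side of the threshold, 26 turned direction, 10 passed it newly, all without the filter, and 17 no longer did, all in the WT tissue comparison. Calls of other members for the difference, of *Tgm1*, and those added between WT tissues stand outside these counts. Low counts limit *Lcn2*, *Steap4*, *Timp1*, *Cxcl10*, *Ptx3*, *Slc10a6* and *Tgm1*.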

Other observations

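The 12 glucocorticoid response genes, which share inducers with *Fkbp5*, *Mt1* and *Mt2*, scored highest in *Snx14*-KO mouse 3 and lowest in *Snx14*-KO mouse 1 in both tissues. The scores were 0.47 and -0.44 in cerebellum and 0.35 and -0.28 in cortex. *Plin4*, a lipid droplet protein, was at 11.4 CPM in the cerebellum of *Snx14*-KO mouse 3 and at 1.72 to 4.82 CPM in the other cerebella. In cortex, *Plin4* was at 4.14 CPM in that mouse and at 0.812 to 1.78 CPM in the others.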
